A study of Homo sapiens with 8 samples.

Results

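Of 74123 regions formed by merging overlapping ChIP-seq peaks in 697 cells, 482 (0.65%) held a peak of each of MTA2, Mi2, HDAC2, IKAROS, AIOLOS, OCAB and OCT2. A region is a run of peaks, from any of the 7 peak lists, in which each peak shares at least 1 bp with the rest of the run. The regions were therefore chosen by the peaks themselves. Their heights and shares are given as descriptions, without a test. The 697 line is an established human pre-B leukaemia line, untreated as far as the labels say, and every library came from it: 1 per antibody and 1 input library of genomic DNA without antibody. The series asks how the NuRD subunit MTA2 and the coactivator OCAB act together at the step from pre-B to immature B cells. A single leukaemia line, with no control line and no replicate library, limits what it can show about normal pre-B cells. No expression values were at hand, so the pre-B label could not be compared with marker genes.

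NuRD is a chromatin complex, mostly known for repression, that both moves nucleosomes and removes acetyl groups from histones. MTA2 is its scaffold subunit, Mi2 names its remodelling ATPases (the labels do not say which one the antibody recognises) and HDAC2 is one of its deacetylases. IKAROS and AIOLOS are related zinc-finger DNA-binding proteins of lymphocytes and are known to associate with NuRD. OCT2 binds the octamer sequence of B-cell promoters and enhancers. OCAB does not bind DNA well alone and is brought to the octamer by OCT2 or its relative OCT1.

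By the rule each list had between 482 and 484 peaks in these regions, so its share follows from its length. The 482 regions took in 10.9% of OCAB peaks (484 of 4440; Wilson 95% interval 10.0 to 11.9), 5.94% of OCT2 peaks (5.45 to 6.48) and 4.68% of Mi2 peaks (4.29 to 5.10). They took in 2.99% of HDAC2 peaks (2.74 to 3.26), 1.68% of MTA2 peaks (1.54 to 1.84), 1.27% of AIOLOS peaks (1.16 to 1.39) and 0.897% of IKAROS peaks (0.821 to 0.980). With the 4000 highest peaks of each list, all 7 shares were between 4.42% and 4.48%. At a p-value over input of 1e-10 or below, applied to every list, the HDAC2 share was 6.02% and the median rank of HDAC2 height in the regions 78.8. Over all lists, 3383 of 159806 peaks (2.12%) lay in these regions. Intervals cover counting error only and leave out variation between libraries, because there was 1 library per antibody. They treat peaks as independent draws, although the rule holds the count of each list between 482 and 484. Another 1714 regions held 6 of the proteins. OCAB was the missing protein in 905 of them, Mi2 in 644, OCT2 in 92 and HDAC2 in 46, while AIOLOS was missing in 13, MTA2 in 10 and IKAROS in 4. With OCAB left out of the rule, 1384 regions held the other 6 proteins, and with Mi2 left out 1112 did. Leaving out any of the other 5 lists gave between 480 and 570 regions.

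Most 7-protein regions held 1 peak of each protein. Their median width was 527 bp (lowest 347, quartiles 441 and 626, highest 1181), and 477 of the 482 held exactly 7 peaks. Regions with 6 proteins had a median width of 476 bp and regions with 1 protein 273 bp. Nearly all of the authors' peaks have 1 width per list, from 250 bp for MTA2 to 346 bp for Mi2, so that more lists make a wider region by construction. Depth was 10.9 to 18.5 M tags in the 5 libraries whose deposited counts allow it to be read (HDAC2 the shallowest). The median peak of these regions rested on 27 tags for HDAC2 (exact Poisson 95% interval 17.8 to 39.3), 29 for OCAB (19.4 to 41.6), 36 for Mi2 (25.2 to 49.8), 41.5 for OCT2 (29.8 to 56.2) and 133 for AIOLOS (111 to 158). The weakest peaks rested on 10 tags for HDAC2 (4.80 to 18.4) and 12 for OCAB (6.20 to 21). These were picked as the lowest of their list in the regions, and their intervals leave out that choice and the limits of peak calling. The amplified reads carry no molecular identifier, so these intervals cover counting error only.

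In the full lists, IKAROS and AIOLOS had the highest median ranks of the 7 proteins. Peak height is the authors' number of tags in a peak per 10 M tags of the library, and the percentile rank of a height is its place in the same list, with ties averaged and 100 for the highest. The IKAROS height in these regions had a median of 102.2 (lowest 13.3, highest 1136), against 20.1 for all other IKAROS peaks, a ratio of 5.08. AIOLOS heights had a median of 81.8 (9.34 to 721.5), against 23 elsewhere, a ratio of 3.56. The median IKAROS peak of these regions ranked at the 94.7th percentile of its list and the median AIOLOS peak at the 92.3rd. Only 3 of the 482 IKAROS peaks and 16 of the AIOLOS peaks lay at or below the median of their list. The order depended on list length. With the 4000 highest peaks of each list, HDAC2 had the highest median rank (84.9), followed by MTA2 (81.3), OCT2 (81.2), IKAROS (76.6) and AIOLOS (74.96). Mi2 (66.1) and OCAB (58.2) came last.

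Among the NuRD subunits, MTA2 and HDAC2 ranked high and Mi2 less so. MTA2 heights had a median of 40.5 (10.1 to 271.0) against 15.8 for other MTA2 peaks, a ratio of 2.56, with a median rank of 92.2. HDAC2 heights had a median of 24.7 (9.16 to 123.7) against 13.7, a ratio of 1.8, with a median rank of 88.7. For Mi2 the median was 19.5 (7.56 to 122.1) against 14.6, a ratio of 1.34, with a median rank of 78.3. The 3 subunits thus differed in how far the regions stood out from the rest of each list, and 86 of the 482 Mi2 peaks lay at or below their list's median, against 26 for MTA2 and 41 for HDAC2.

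The octamer pair split. OCT2 heights had a median of 22.4 (7.09 to 160.4) against 13.6 for other OCT2 peaks, a ratio of 1.65, with a median rank of 79.3. OCAB heights had a median of 16.5 (6.84 to 219.9) against 15.4, a ratio of 1.07, with a median rank of 53.5, close to the middle of the list. In 218 of the 482 regions the OCAB peak lay at or below the median of the OCAB list, and OCAB had the lowest of the 7 ranks in 316 regions. IKAROS had the highest of the 7 ranks in 227 regions, MTA2 in 84 and OCAB in 20. These counts compare ranks in full lists of different length and were not made at equal list length.

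**Figure D1:**
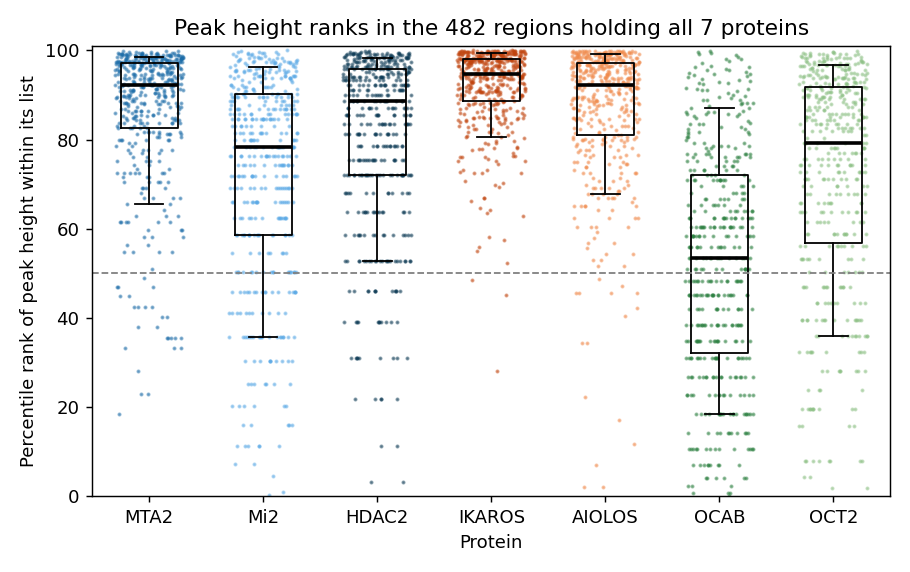
Percentile rank of peak height within its own list (vertical axis, 100 is the highest peak) for each protein in the 482 regions; each point is 1 region, boxes show median and quartiles, whiskers the 10th and 90th percentiles, and the dashed line the middle of a list. IKAROS, AIOLOS and MTA2 medians lie above 92, whereas the OCAB median lies at 53.5.

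The regions were also counted by the highest 10% of each list. The share of a whole list that falls in its highest 10% departs slightly from 10% where heights are tied. It was 9.95% for IKAROS, and 345 of the 482 regions (71.6%) had such an IKAROS peak. For MTA2 it was 10% of the list and 277 regions (57.5%), for AIOLOS 10.1% and 273 regions (56.6%), and for HDAC2 10.5% and 224 regions (46.5%). For OCT2 it was 10.2% and 148 regions (30.7%), for Mi2 10.1% and 125 regions (25.9%), and for OCAB 10% and 37 regions (7.68%). Since the rule used these same peaks, the counts describe the regions and no more. IKAROS and AIOLOS were both in their highest 10% in 268 regions, MTA2 and HDAC2 in 190, all 3 NuRD subunits in 69, and OCAB and OCT2 in 21. In 208 regions 4 or more of the proteins were in their highest 10%, in 4 regions all 7 were, and in 72 regions none was. For these joint counts the share over all merged regions was not computed, so they have no background beside them.

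Height went up with the number of proteins found in a region for 6 of the proteins, and OCAB was the exception. The median rank of IKAROS peaks was 21.3 in regions with IKAROS alone, 65.3 with 3 proteins, 86.0 with 5, 91.5 with 6 and 94.7 with 7. MTA2 went from 22.9 alone through 58.1 with 4 proteins to 92.2 with all 7, and HDAC2 from 21.9 through 52.7 to 88.7. OCT2 started at 23.8 alone, was at 67.8 with 6 proteins and ended at 79.3. Mi2 changed less, from 35.8 alone to 50.4 with 2 and with 3 proteins, 54.6 with 4 and 78.3 with 7. The OCAB rank was 38.4 in regions with OCAB alone and between 53.5 and 55.9 for every number of proteins from 2 to 7. The median OCAB peak thus ranked no higher where all 7 proteins met than where OCAB lay with 1 other.

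**Figure D2:**
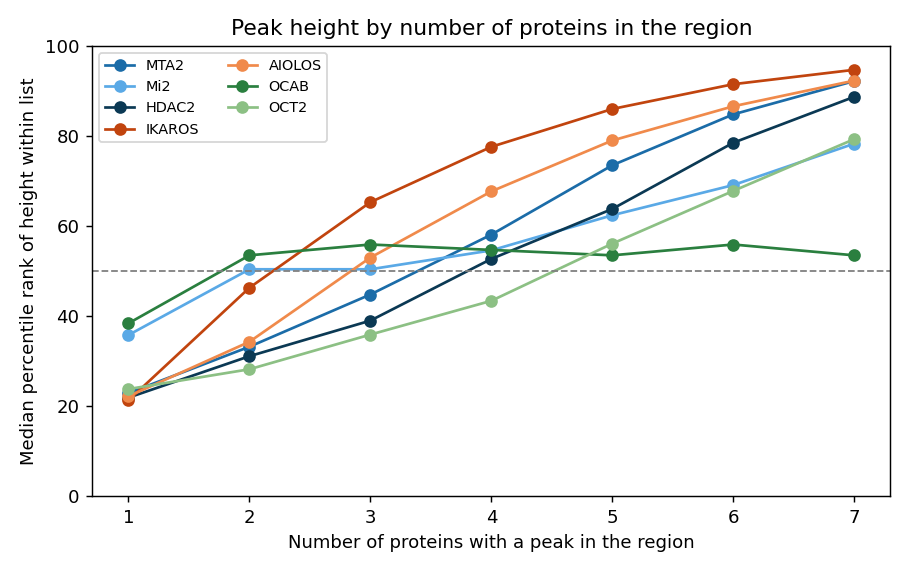
Median percentile rank of peak height within its list (vertical axis) against the number of proteins with a peak in the region (horizontal axis), 1 line per protein. The lines of 6 proteins climb to between 78.3 and 94.7 at 7 proteins, whereas the OCAB line stays between 53.5 and 55.9 from 2 proteins on.

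The 905 regions that held every protein but OCAB were the most numerous kind that lacked 1 protein. Their median heights were lower for each of the 6 proteins they shared with the 7-protein regions. MTA2 had a median of 29.8 (quartiles 21.5 and 42.9) there and 40.5 (28.5 and 58.2) with OCAB present. OCT2 had 16.4 (12.0 and 21.8) without OCAB and 22.4 (15.4 and 33.3) with it. IKAROS had 78.3 (48.3 and 126) against 102.2 (67.6 and 167.8), HDAC2 20.2 against 24.7, AIOLOS 61 against 81.8 and Mi2 17.8 against 19.5. The interquartile ranges of both sets overlapped for MTA2, OCT2 and IKAROS. With 1 library per antibody the differences could not be tested.

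In the 644 regions that lacked Mi2 alone, the median heights of the octamer pair lay close to those in the 7-protein regions, while those of the others were lower. As above, no test was possible. OCT2 had a median of 21.3 (quartiles 15.3 and 31.1) without Mi2 and 22.4 with it, and OCAB 17.1 (12.5 and 28.0) against 16.5 (12.6 and 22.8). MTA2 had 32.8 without Mi2 and 40.5 with it, HDAC2 21.1 against 24.7, and IKAROS 83.8 against 102.2. The 92 regions that lacked OCT2 alone had the lowest OCAB height among regions missing OCT2, Mi2 or HDAC2, with a median of 13.9 (11.4 and 18.8). The 46 regions without HDAC2 had a median MTA2 height of 19.9 (14.2 and 29.0), the lowest among regions missing 1 protein other than MTA2. The 13 regions without AIOLOS had median heights of 133 for IKAROS, 46.9 for MTA2 and 30.2 for HDAC2, above those with all 7 proteins. Their medians for Mi2 (18.4), OCAB (15.4) and OCT2 (21.8) lay below those with all 7.

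By fold over input, Mi2 and OCAB were lower in the 7-protein regions than elsewhere, although their heights were higher. The deposited fold is the authors' ratio of ChIP to input tags at equal depth. Its median in the 7-protein regions was 59.3 for IKAROS (15.0 for the other peaks of that list), 49.3 for AIOLOS (16.3), 24.4 for MTA2 (11.5), 13.2 for OCT2 (9.85) and 11.5 for HDAC2 (7.33). For Mi2 it was 8.20, below the 9.18 of other Mi2 peaks, and for OCAB 10.3, below 12.7. Ranked by fold instead of height, the median Mi2 peak stood at 41.25 and the median OCAB peak at 38.9, both under the middle of the list. The order of the 7 median ranks was the same by fold as by height. The median input signal was 1.69 times that of other peaks for Mi2, between 1.30 and 1.35 times for MTA2, IKAROS, AIOLOS, OCAB and OCT2, and 1.00 times for HDAC2. What part the input has in the ranks was not tested.

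Peak shape was nearly the same inside and outside these regions for 5 proteins. The focus ratio, the share of tags placed as a single sharp site would have them, had medians of 0.775 for IKAROS (0.773 in other peaks), 0.786 for AIOLOS (0.794), 0.726 for MTA2 (0.724), 0.756 for OCT2 (0.750) and 0.698 for HDAC2 (0.706). It was lower for Mi2, 0.667 against 0.724, and for OCAB, 0.744 against 0.788. The fold over the surrounding sequence was 24.6 against 11.6 for IKAROS, 25.1 against 13.1 for AIOLOS, 13.3 against 8.12 for MTA2, 11.5 against 8.12 for OCT2 and 8.84 against 6.88 for HDAC2. It was no higher inside the regions for Mi2, 5.99 against 6.03, and OCAB, 9.22 against 9.94, although their heights were.

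Across the 482 regions the heights of IKAROS and AIOLOS ranked most alike, followed by MTA2 with HDAC2, and Mi2 and OCAB ranked least like the others. All values are Spearman rho over the same 482 regions, which are not independent replicates. IKAROS and AIOLOS had rho 0.954, and MTA2 with HDAC2 0.716. MTA2 ranked with IKAROS at 0.673 and with AIOLOS at 0.667. OCT2 ranked with HDAC2 at 0.586, with MTA2 at 0.574 and with OCAB at 0.509. OCAB had no higher value than that with OCT2, its other 5 lying between 0.183 (Mi2) and 0.275 (HDAC2). Mi2 had its highest with HDAC2, at 0.419, and 0.371 with MTA2. In the regions that held a pair but not all 7 proteins, the value for OCAB with OCT2 was 0.269 (1392 regions), for OCAB with MTA2 0.0635 (1812 regions, against 0.268 in the 482) and for OCAB with AIOLOS 0.037 (2044 regions, against 0.252). For MTA2 with IKAROS the values were alike, 0.681 and 0.673. For Mi2 they were lower in the 482 regions with MTA2 (0.371 against 0.479), HDAC2 (0.419 against 0.482), IKAROS (0.324 against 0.417), AIOLOS (0.324 against 0.388) and OCT2 (0.302 against 0.401), and alike with OCAB (0.183 against 0.161).

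**Figure D3:**
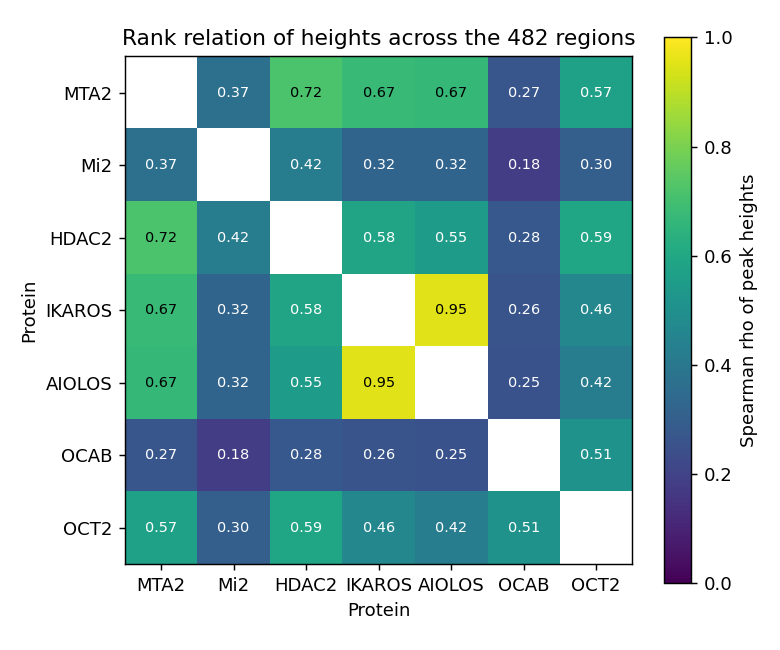
Spearman rho of peak heights for each pair of proteins over the 482 regions (colour and printed value; both axes list the 7 proteins). IKAROS with AIOLOS reaches 0.95, MTA2 with HDAC2 0.72, and the OCAB row stays under 0.3 except with OCT2.

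The 7 peak centres did not coincide, and Mi2 was the one most often off to the side. From the leftmost to the rightmost centre the median distance was 220 bp (lowest 23, quartiles 136 and 326, highest 886). It was at most 100 bp in 63 regions (13.1%) and over 500 bp in 21. IKAROS, AIOLOS and MTA2 lay closest together, with a median of 51 bp between the outer 2 of their 3 centres. The median distance of a centre from the median of all 7 was 17.0 bp for IKAROS, 19.0 for AIOLOS, 21 for MTA2, 28.5 for OCT2, 37.0 for HDAC2, 38.0 for OCAB and 99.5 for Mi2.

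The Mi2 centre lay outside the span of the other 6 in 294 regions (61%), and more than 100 bp from their median in 258 (53.5%). Next came OCAB, outside in 176 regions (36.5%), and HDAC2 in 146 (30.3%). Without Mi2 the other 6 centres spanned a median of 141 bp, close to the 139 bp of the 6 centres in regions that lacked Mi2. Leaving out another protein changed the span far less, to between 203 and 219 bp. Mi2 displacement did not shrink in its tallest peaks: it was 117 bp in the highest 25% of Mi2 heights (median 59 tags) and 87.0 bp in the lowest 25% (25 tags). For OCAB it did not shrink either, at 43.0 bp in the highest 25% (61 tags) and 42.0 bp in the lowest 25% (19 tags). For HDAC2 it was 25 bp in the highest 25% (43 tags) and 47.0 bp in the lowest 25% (16 tags). Mi2 peaks are also the widest of the lists, at 346 bp, and the part of peak width and focus in this offset was not tested.

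**Figure D4:**
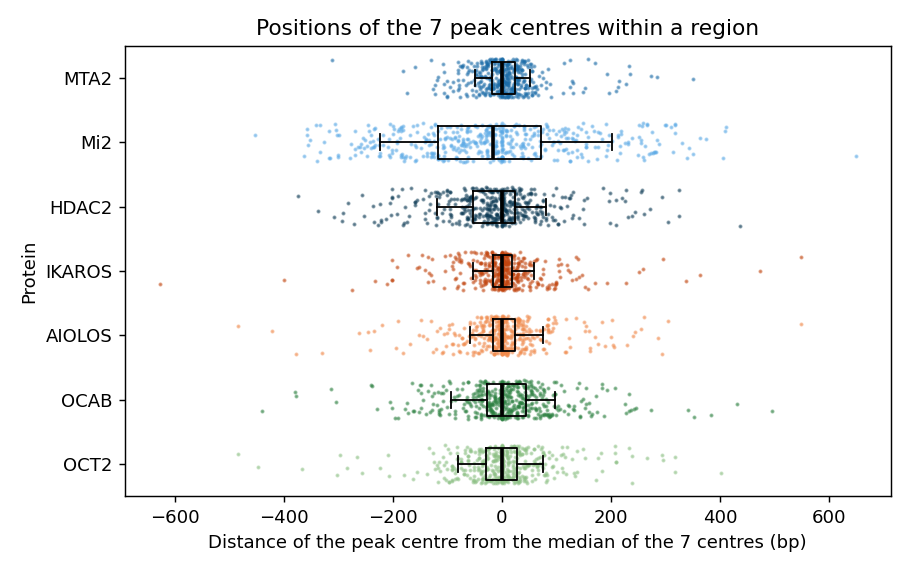
Distance in bp of each protein's peak centre from the median of the 7 centres of its region (horizontal axis, negative toward lower coordinates), 1 point per region and 1 row per protein; boxes show median and quartiles, whiskers the 10th and 90th percentiles. Mi2 spreads most widely, with a median distance of 99.5 bp whatever the side, and IKAROS least, with 17.0 bp.

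Where the OCAB and OCT2 centres lay away from the IKAROS, AIOLOS and MTA2 centres, they were mostly on the same side. In 150 regions both lay over 50 bp from the median of the IKAROS, AIOLOS and MTA2 centres, and in 132 of these (88.0%, Wilson 95% interval 81.8 to 92.3) they were on the same side. For Mi2 with OCAB this held in 92 of 170 regions (54.1%, 46.6 to 61.4) and for Mi2 with OCT2 in 88 of 161 (54.7%, 46.9 to 62.2). Mi2 with HDAC2 lay between, with 131 of 191 regions (68.6%, 61.7 to 74.7), and HDAC2 with OCT2 had 107 of 136 (78.7%, 71.1 to 84.7), an interval that overlaps that of OCAB with OCT2. All pairs were measured from the same reference, so an error in it puts any pair on the same side, and its part was not tested. The same-side counts were not made in other regions with these proteins, so they have no background beside them. The median distance between OCAB and OCT2 centres was 43.5 bp here and 43.0 bp in the 1392 other regions with both. IKAROS and AIOLOS lay 24.0 bp apart here and 33.0 bp in other regions with both, MTA2 and OCAB 47.0 against 71.0, and IKAROS and OCAB 55.0 against 76.0. Mi2 lay farther from 4 proteins here than elsewhere: MTA2 (114 against 105 bp), HDAC2 (110 against 94.0), OCT2 (122 against 104) and OCAB (133 against 123). It lay slightly closer to IKAROS (106 against 113) and AIOLOS (108 against 117).

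Membership rested on chained overlap, and not every region had a base common to all 7 peaks. Such a base existed in 332 regions (68.9%), with a median of 125 bp covered by all 7 peaks. In the other 150 the peaks were linked in a chain. At the edge of the rule, 8 regions had a link of under 20 bp. The thinnest, 2 bp, was in chr16:88963960-88965140, and 5 bp joined both chr4:40623778-40624458 and chr16:85644059-85644837. Just outside, 85 of the 1714 regions with 6 proteins had a peak of the missing protein within 500 bp. This held in 52 of the 644 regions that lacked Mi2 and in 15 of the 905 that lacked OCAB. For the others it held in 5 of 92 (OCT2), 5 of 46 (HDAC2), 3 of 13 (AIOLOS), 2 of 10 (MTA2) and 3 of 4 (IKAROS). The nearest were 1 bp away, a Mi2 peak of height 20.5 beside chr13:37123657-37124207 and an OCAB peak of height 34.2 beside chr19:51216115-51216510.

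The strongest 7-protein regions by mean rank over the lists were spread over 8 chromosomes. All coordinates are on hg19. The first was chr4:51571-51983, near the end of the short arm, with the highest IKAROS (1136), AIOLOS (721.5), MTA2 (271.0) and HDAC2 (123.7) peaks of the set. There the Mi2 height was 54.6, the OCT2 height 91.7 and the OCAB height 41.6, the last still only at the 88.8th percentile of its list. The fold over input at this site was 185.67 for IKAROS and 5.20 for OCAB, with 14.0 input tags, scaled to ChIP depth, in the OCAB peak, against a median of 3.30 over the 482 regions.

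At chr9:116821674-116822309, with the same mean rank of 98.2, all 7 peaks were in the highest 10% of their lists. The heights were 338.3 for IKAROS, 262.7 for AIOLOS, 93.3 for MTA2, 52.2 for HDAC2, 48.6 for Mi2, 61.5 for OCAB and 46.4 for OCT2. No base was common to the 7 peaks, since the OCAB centre lay 242 bp to one side of the median centre and the Mi2 centre 87.0 bp to the other. Other regions with all 7 proteins in their highest 10% included chr1:199010582-199011030 (OCAB 47.9, OCT2 65.5) and chr3:187676172-187676647 (OCAB 54.7, OCT2 38.2). In the latter the OCAB and OCT2 centres were displaced to the same side, by 131 and 111 bp.

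On chromosome 8, chr8:130577841-130578287 had heights of 830.1 for IKAROS, 172.1 for MTA2, 110.7 for OCT2 and 30.2 for OCAB. A second region there, chr8:140789000-140789636, had 647.1 for IKAROS and a Mi2 centre 270 bp away from the median. Both regions named on chromosome 7 had AIOLOS heights of 501.1, at chr7:73631687-73632123 (OCT2 90.0) and chr7:632988-633451 (OCT2 70.9). The region chr12:129325392-129326111 had the highest OCT2 peak of the set, at 160.4, with its centre 295 bp from the median of the 7. It had no base covered by all 7 peaks. Its IKAROS peak (473.0) was 502.56-fold over input and its Mi2 peak (27.0) 4.78-fold. The deposited input signals were 2.0 for IKAROS and 10.5 for Mi2, against medians of 4.0 and 4.4 over the 482 regions. The part of the input in this contrast was not tested.

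Coinciding centres occurred in both tall and ordinary regions. At chr20:62709388-62709734 the 7 centres lay within 26 bp, with heights of 214.1 for MTA2, 242.8 for AIOLOS, 205.7 for IKAROS, 54.0 for OCT2 and 35.3 for OCAB. At chr19:11390566-11390924 they also lay within 26 bp, with an IKAROS height of 407.2. The tightest region, chr20:17836853-17837199, had centres within 23 bp but a Mi2 height of 13.0 and an OCAB height of 13.1, both under the medians of their lists. At the other extreme, the centres of chr16:88963960-88965140 spanned 886 bp and its 10 peaks could be chosen to span 514 bp. Those of chr16:89307431-89308530 spanned 798 bp, with Mi2 649 bp from the median, and those of chr6:36971766-36972814 spanned 778 bp. In 4 equal groups by mean rank, from lowest to highest, the median span was 236, 228, 204 and 217 bp. Both upper groups had smaller medians than both lower groups, though the highest group did not have the smallest. A relation between height and span was not tested.

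Individual regions leaned toward NuRD or toward the octamer pair. The mean rank of the 3 NuRD subunits exceeded that of OCAB and OCT2 in 402 of the 482 regions, by a median of 16.7 percentile points. This lead was not computed in other regions, so it has no background beside it. Within the octamer pair the median rank was 53.5 for OCAB and 79.3 for OCT2, the latter close to the 78.3 of Mi2. These ranks depend on list length. With the 4000 highest peaks of each list, the NuRD median ranks were 81.3 (MTA2), 66.1 (Mi2) and 84.9 (HDAC2). OCT2 then had 81.2 and OCAB 58.2, and the lead was not computed at equal list length. The widest lead for NuRD was 64.5 points at chr19:17849926-17850379, where MTA2 was 38.1 and Mi2 19.5 beside OCAB 9.69 and OCT2 9.27. At chr19:10415569-10416273 a Mi2 peak of 36.7 stood with OCAB at 10.3, and at chr3:61880408-61881110 a Mi2 peak of 23.2 stood with OCAB at 10.8. The reverse was seen at chr14:21776690-21777495, with OCAB 137.9 and OCT2 31.1 beside MTA2 13.1 and Mi2 13.0. It was also seen at chr1:87691300-87692075 (OCAB 46.2, HDAC2 10.1) and chr1:204889362-204889777 (OCAB 38.2, MTA2 12.7).

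The highest OCAB peak of the set, 219.9, lay at chr19:41282874-41283419. The OCAB, OCT2, IKAROS, AIOLOS and MTA2 centres there were within 10 bp of the median, while the Mi2 centre was 226 bp away. The highest Mi2 peak, 122.1, lay at chr8:134510762-134511491, with its centre 263 bp from the median and the HDAC2 centre 228 bp from it on the same side. The weakest region by mean rank (21.4) was chr19:18793658-18794340, with all 7 peaks under the medians of their lists, IKAROS at 19.7 and OCAB at 8.55. The next were chr13:52768348-52769056 (IKAROS 24.0) and chr6:137752971-137753884 (IKAROS 13.3, the lowest of the set).

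The 482 regions lay on chromosomes 1 to 22 and X, with none on the Y chromosome or on contigs without a place. Chromosome 1 had 58, chromosomes 2 and 5 had 35 each, and the X chromosome had 1. As a share of the merged regions of a chromosome, they made up 1.13% on chromosome 22 (Wilson 95% interval 0.730 to 1.73), 1.04% on chromosome 20 and 0.922% on chromosome 5. On the X chromosome they made up 0.062% (1 of 1613, 0.0109 to 0.350), and on chromosome 15 0.300%. Of regions with OCAB, 10.9% held all 7 proteins over the genome and 1.67% on the X chromosome (1 of 60, 0.295 to 8.86). The shares of the 23 chromosomes were not tested against each other.

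**Figure D5:**
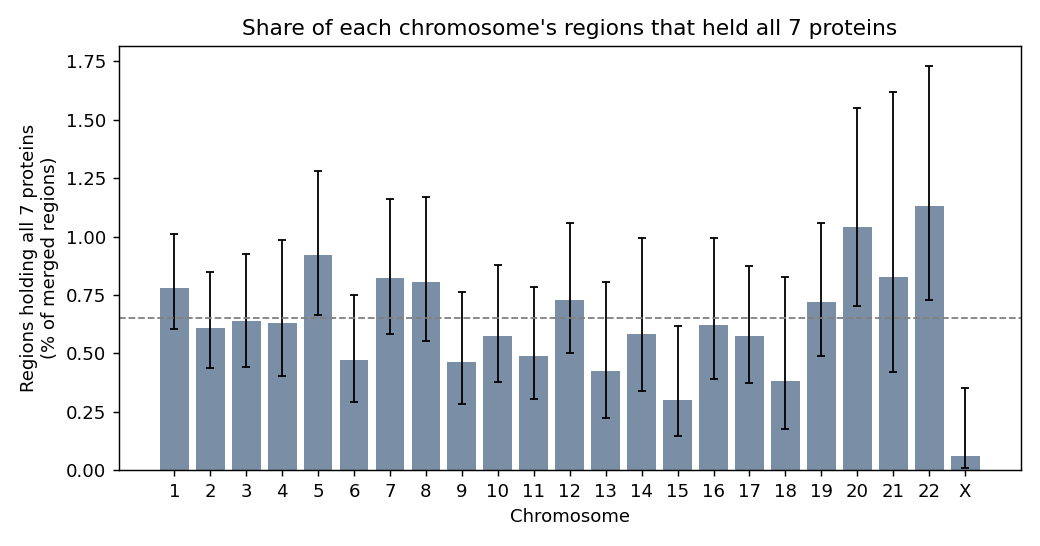
Regions holding all 7 proteins as a percentage of all merged regions of each chromosome (bars), with Wilson 95% intervals for counting error and the genome-wide 0.65% as a dashed line. Chromosome 22 is highest at 1.13% and the X chromosome lowest at 0.062%.

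The regions had about as many neighbouring merged regions as merged regions in general. The median distance to the nearest other 7-protein region was 1008000 bp, 57 regions lay within 100 kb of another and 4 within 10 kb. How many would lie so close by their number alone was not computed, so clustering was not judged. The 4 were 2 neighbouring pairs, on chromosome 11 at 20674876 and 20683042 and on chromosome 20 at 35603334 and 35612535. In the chromosome 11 pair the Mi2 heights were 17.3 and 57.8 and the IKAROS heights 127.5 and 64.6. No other merged region lay within 10 kb of 31.5% of the 7-protein regions, against 30.7% of all merged regions. The median number of other regions within 100 kb was 12 and 10.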

How the data were processed

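The 7 peak lists, 1 per antibody, were analysed; the input library has no list of its own. Per the submitters' processing notes, the build was hg19 and the tools Bowtie2 2.3.2.2, HOMER 4.9.1 and CASAVA, version 1.4 for HDAC2 and 1.8.2 otherwise. Per the file headers, the HDAC2 peaks had to exceed both the input and the 10000 bp around them by 4-fold; for the other 6 lists the limits are not stated, and the HDAC2 list used its own input directory. Each list came from 1 library. The authors deposited peak height as a signal per 10 M tags, whole tag counts for 5 lists (scaled to the input for MTA2 and IKAROS), input tags as a signal, fold as a ratio, HOMER p-values, the focus ratio as a fraction and HOMER's score (not used here).

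Peaks sharing at least 1 bp (ends included) were merged. Where a region held several peaks of a list, the highest was used. Members and lists were chosen with earlier results of these data known. Named regions follow a rule: the 10 highest mean ranks, the highest peak of each list, and 3 regions each of smallest and largest centre spread, lowest mean rank, and widest lead of NuRD over octamer ranks and the reverse; the regions at the edge of the rule, the 2 neighbouring pairs and those in the closing section were added after their values were seen. The reference genes at hand were on GRCh38, so no region was given a gene, annotation, sequence or motif. Merging and centre code was tested on simulated peaks. Python 3.11.15, numpy 2.4.6, pandas 2.3.3, scipy 1.17.1 and matplotlib 3.10.9 were used.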

Additional observations from a re-analysis of the deposited data

How the results depend on the processing

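No paired analysis was possible because each antibody had 1 library. The number of 7-protein regions was 213 with the 7 centres within 200 bp, 153 at 8-fold or more over input and 177 with the 4000 highest peaks per list. It was 332 with a base common to all 7 peaks and 402 at a p-value over input of 1e-10 or below. With a list left out, an alternative added after the data were seen, it was 1112 without Mi2 and 1384 without OCAB. The share of all peaks in such regions (2.12%) was 1.45% with a common base, 0.933% with centres within 200 bp, 0.889% at 8-fold, 4.44% with 4000 peaks per list and 1.92% at the p-value limit. The median of the regions' mean rank (80.7) was 74.5 at 8-fold, 70.9 with 4000 peaks per list and 66.4 by fold over input. The median span of centres (220 bp) was 165 bp with a common base, 128 bp with centres within 200 bp, which limits it by construction, and 203 bp with 4000 peaks per list. The causes of the other changes were not tested. Of 112 values for single lists under these alternatives, 56 stayed within the interval of the value reported and 56 moved out of it. The choice among several peaks of a list, the limit of 1000 bp on width and the limit to autosomes and X moved none. Depth limits the weakest peaks, which rest on 10 to 15 tags in the 5 lists with whole counts.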

Other observations

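A few regions held every protein except IKAROS or MTA2, and they were looked up after the counts were seen. In the 4 regions without IKAROS, AIOLOS heights ran from 20.5 at chr1:227151039-227151605 to 44.2 at chr15:68132281-68133024. MTA2 was 66.6 at chr16:4303954-4304457, where OCAB was 7.98. In 3 of the 4 an IKAROS peak lay within 500 bp, among them a peak of height 43.2 that ended 19 bp from chr1:172787920-172788348.

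Of the 10 regions without MTA2, 3 had tall peaks of the lymphoid factors. At chr9:111407769-111408248 the heights were 303.2 for IKAROS, 205.4 for AIOLOS and 36.6 for HDAC2, and at chr7:105752057-105752428 they were 269.0 for IKAROS and 325.6 for AIOLOS. At chr17:74965184-74965896 IKAROS was 195.0 and OCAB 121.4, and an MTA2 peak of height 44.2 lay 41 bp away. In the other 7 the IKAROS heights were between 14.1 and 48.3, and OCAB stood at 90.0 at chr19:6257638-6258171 and 64.4 at chr19:14126129-14126895. Among these, chr15:65596173-65596956 also had an MTA2 peak within 500 bp, of height 13.1 and 295 bp away. The median OCAB height of the 10 was 29.9, against 16.5 in the regions with all 7 proteins.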
